A study of Mus musculus with 6 samples.

Results

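The genes described here were 10 members of the JNK cascade in mouse colon, of 24517 genes listed in the count tables. They were chosen by name, for their place in the cascade and with earlier results of these data known: the JNK kinases Mapk8, Mapk9 and Mapk10, the upstream kinases Map2k4, Map2k7 and Map3k5, the adaptor Traf2, and the JIP scaffolds Mapk8ip1, Mapk8ip2 and Mapk8ip3. All 10 passed the filter on low counts, which left 16347 genes for testing. The neuronal gene Uchl1, which encodes an abundant deubiquitinase of nerve cells, was set beside Mapk10 in every library.

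JNK is the stress-activated arm of the MAP kinase family. A stress or cytokine receptor recruits adaptors such as TRAF2, these activate a MAP3 kinase such as ASK1, the MAP3 kinase phosphorylates MKK4 and MKK7, and these in turn phosphorylate JNK, which acts on c-Jun and other substrates. The endoplasmic reticulum stress sensor IRE1, encoded by Ern1, is joined to the same cascade through TRAF2 and ASK1. JNK1 (Mapk8) and JNK2 (Mapk9) are made in nearly all cells, whereas JNK3 (Mapk10) is known chiefly from nerve cells. The JIP proteins hold the kinases of the cascade together and also tie them to kinesin motors, and JIP1 and JIP2 are best known from neurons. The colon wall carries its own nerve cells and glia, in plexuses beneath the epithelium and between the muscle layers.

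RNA-seq libraries were made from 3 NSD2fl/fl and 3 NSD2∆IE colon samples of mice. NSD2fl/fl animals carry floxed alleles of Nsd2, an H3K36 methyltransferase, and served as controls, while in NSD2∆IE animals the gene was disrupted in the intestine, per the methods with a Cre driven by the Villin promoter, which is active in epithelial cells. Both groups were on a C57BL/6J background and ate a diet rich in fat and cholesterol (HFCD); its length was 16 weeks per the labels and 18 weeks from an age of 7 to 8 weeks per the methods. The colon region was not given in the sources used here, and no group on normal diet is part of the series. The comparison bears on whether the JNK arm downstream of ERN1 differed in the colon without epithelial NSD2, and it is limited to transcripts: kinase phosphorylation was not measured in these files. By protein, the paper reports lower ERN1 and phosphorylated JNK in NSD2∆IE colon. By RNA-seq and RT-PCR, it reports Ern1 as the only endoplasmic reticulum stress sensor gene that was significantly lower. Its gene ontology terms of the lowered genes include positive regulation of Jun kinase activity.

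The libraries held between 38041832 and 38604680 counts. Counts of Nsd2 itself were 1840, 2091 and 2455 in the controls and 972, 914 and 1139 in the knockouts, so the targeted gene was lower in all 3 knockouts and still detected. The source of the remaining counts was not tested. The methods describe male littermates, but Xist, the RNA of the inactive X chromosome, had at most 4 counts in each NSD2fl/fl library and 21217 to 24234 in each NSD2∆IE library, and 4 Y-linked genes together had 5058 to 6110 counts against at most 1. The genotypes therefore cannot be told apart from this pattern in any value below. The first principal component took 51% of the variation and cut across the genotypes, with NSD2fl/fl replicate 2 and NSD2∆IE replicates 2 and 3 on one side and the other 3 libraries on the other. No label names a batch. Nothing in the labels says how the replicates of a group were separated, so p-values measure the spread between these samples only.

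The starts of 4 genes named often below are printed as a description: Mapk10 and Mapk8ip2, which were higher in the knockout with Uchl1, and Mapk8, a broadly made JNK kinase that was not. No result below depends on these sequences. Each window holds 250 bases before and 50 after a RefSeq transcript start (GRCm38.p6), read 5′ to 3′ on the strand of the gene, and capitals mark motifs.
Mapk10, chr5:103211285-103211584, minus strand: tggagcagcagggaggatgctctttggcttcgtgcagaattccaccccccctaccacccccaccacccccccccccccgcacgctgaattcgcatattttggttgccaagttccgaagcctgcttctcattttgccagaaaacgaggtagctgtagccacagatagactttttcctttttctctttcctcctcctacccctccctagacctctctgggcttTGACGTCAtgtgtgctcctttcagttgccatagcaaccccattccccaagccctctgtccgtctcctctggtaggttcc
Mapk8ip2, chr15:89453661-89453960, plus strand: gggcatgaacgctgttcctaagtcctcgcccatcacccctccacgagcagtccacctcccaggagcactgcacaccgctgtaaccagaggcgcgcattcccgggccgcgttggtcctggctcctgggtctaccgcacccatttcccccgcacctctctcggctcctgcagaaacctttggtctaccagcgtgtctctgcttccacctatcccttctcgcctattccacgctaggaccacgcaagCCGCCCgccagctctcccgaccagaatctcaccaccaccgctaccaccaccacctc
Uchl1, chr5:66675871-66676170, plus strand: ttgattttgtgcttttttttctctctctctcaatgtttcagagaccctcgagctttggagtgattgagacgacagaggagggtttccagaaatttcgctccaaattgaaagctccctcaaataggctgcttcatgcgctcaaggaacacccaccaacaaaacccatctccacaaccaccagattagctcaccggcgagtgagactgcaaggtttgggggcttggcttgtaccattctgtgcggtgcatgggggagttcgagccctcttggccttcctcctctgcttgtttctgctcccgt
Mapk8, chr14:33447109-33447408, minus strand: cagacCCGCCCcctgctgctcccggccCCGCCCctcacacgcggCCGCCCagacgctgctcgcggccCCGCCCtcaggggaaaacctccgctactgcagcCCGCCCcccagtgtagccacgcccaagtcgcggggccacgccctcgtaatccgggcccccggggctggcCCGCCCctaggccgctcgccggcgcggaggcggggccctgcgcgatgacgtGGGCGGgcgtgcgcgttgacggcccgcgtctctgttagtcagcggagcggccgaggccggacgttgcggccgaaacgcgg
RefSeq windows were at hand for 9 of the 10 members, 13 windows in all, and Mapk8ip1 had none. The motifs searched on both strands were the cyclic AMP response element TGACGTCA, the AP-1 site TGANTCA, the left part of the RE1 silencer element TTCAGCACC and the GC box GGGCGG. None of these motifs contains another. The capitals in Mapk10 are a TGACGTCA that begins 29 bases before the start, the only one among the members' windows, and 1.79% of the 32851 windows of all genes hold that motif. The capitals in Mapk8 are 7 GC boxes, read on one strand or the other, and the single run in Mapk8ip2 is a GC box 6 bases before the start. A GC box lay in 7 of the 13 windows of members and in 35.7% of all windows. TTCAGCACC lay in no window of a member and in 0.371% of all windows, and TGANTCA lay in 1, a second start of Map2k7, and in 7.81% of all windows. GC content in the printed windows was 77.7% with 45 CpG in Mapk8, 63.3% with 20 CpG in Mapk8ip2, 55.3% with 8 CpG in Mapk10 and 50.7% with 9 CpG in Uchl1. The median over all windows was 52.7%. A second start of Mapk8, not printed, had 34.3% with 1 CpG, and a second start of Mapk10 had 32.7% with 2 CpG. Neither held any of the motifs. A match of letters is a description and not a bound site.

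Levels of different genes were compared per transcript length, in FPKM (fragments per kilobase of transcript, scaled to sequencing depth). Over the 6 libraries the highest members were the MAP2 kinase genes, Map2k4 with a mean of 14.6 FPKM and Map2k7 with 14.2 FPKM, followed by Mapk9 with 11.4 and Mapk8ip3 with 8.27 FPKM. Traf2 at 5.56, Map3k5 at 5.18 and Mapk8 at 4.25 FPKM formed the middle of the order. Mapk8ip1 at 3.62, Mapk8ip2 at 1.26 and Mapk10 at 0.537 FPKM were the lowest. The step from Mapk8ip3 to Traf2 was the only one between neighbours in this order at which the ranges over the 6 libraries were apart, and every other pair of neighbours overlapped. Mapk10 was thus the lowest member on average, with 75 to 283 counts behind each value, whereas Mapk9 had 1733 to 2431.

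**Figure D1:**
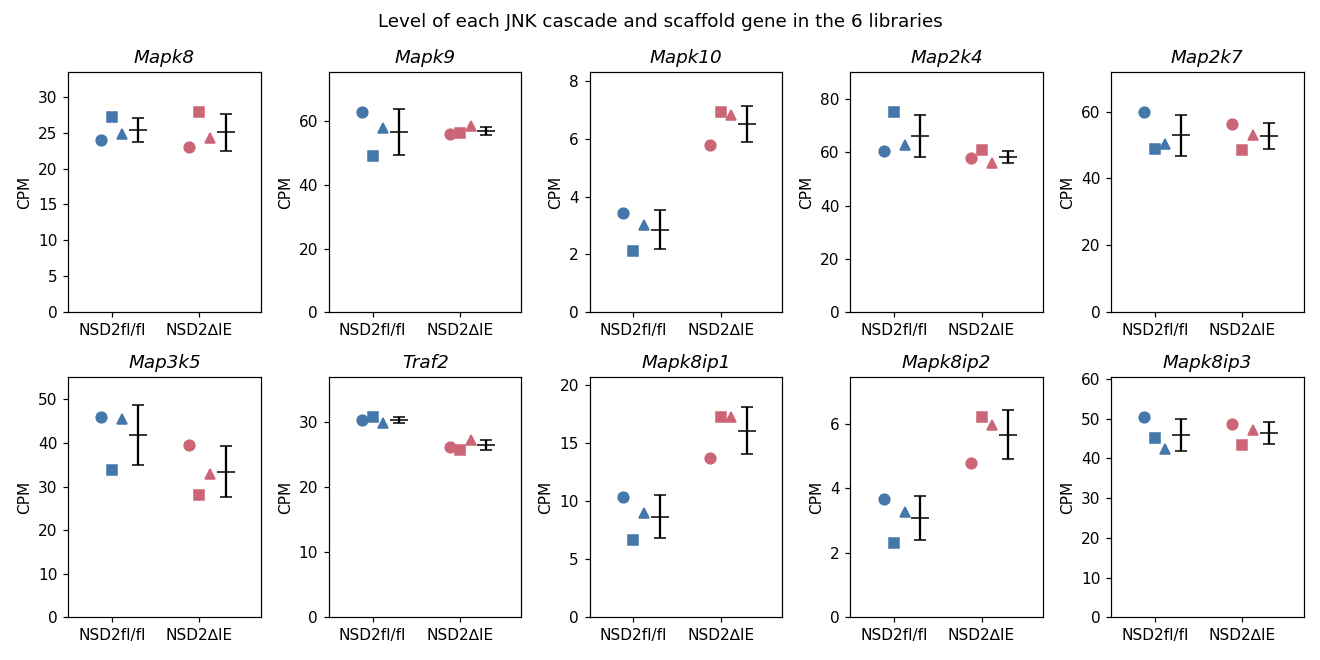
Normalised level of each of the 10 members in CPM (linear axis from 0), one panel a gene, with one point a library (circle, square and triangle for replicates 1, 2 and 3) and the mean ± SD of each genotype (n = 3) in black. Mapk10, Mapk8ip1 and Mapk8ip2 are higher in all 3 NSD2∆IE libraries, Traf2 is lower in all 3, and the points of the other 6 overlap.

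Mapk10, Mapk8ip1 and Mapk8ip2 were higher in NSD2∆IE colon, and the broadly made JNK kinases, the upstream kinases, Traf2 and Mapk8ip3 were not called in either direction. Mapk10 had the largest difference of the members, 2.28-fold. In whole tissue, more cells of a type and more of an RNA per cell cannot be told apart. At the threshold of the study (unadjusted p below 0.05 and an absolute log2 fold change above 0.322), 3 of the 10 members were higher and 0 were lower, where 8.05% of all genes tested were higher and 2.21% lower. At an adjusted p under 0.05 (edgeR's quasi-likelihood test with Benjamini-Hochberg adjustment over all genes) 0 of the 10 were called, where 0.0306% of all genes were. 3 members had an unadjusted p under 0.05 by edgeR, as did 11.1% of all genes. At an adjusted p under 0.05 DESeq2 called 3 members, Mapk10, Mapk8ip1 and Mapk8ip2, where it called 2.97% of the same genes, and limma-voom called 0 members and 0.0306% of all genes. The libraries of the 2 genotypes did not overlap for 3 members that were higher and 1 that was lower, where 11.4% and 7.28% of all genes showed this. The median log2 fold change of the 10 was 0.001, against -0.041 over all genes tested.

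Levels of one gene across libraries are given in CPM, its counts scaled to library size with TMM factors. Mapk10, the gene of the neuronal JNK3, stood at 3.43, 2.12 and 3.03 CPM in the NSD2fl/fl libraries and at 5.80, 6.94 and 6.82 CPM in the NSD2∆IE libraries. The lowest knockout library was above the highest control library, and NSD2fl/fl replicate 2 was the lowest of the 6. The group means were 2.86 ± 0.671 and 6.52 ± 0.625 CPM (SD, n = 3), a log2 fold change of 1.19 (SE 0.24, edgeR adjusted p = 0.302 and DESeq2 adjusted p = 0.00154). The gene spans chr5:102908547-103212604 on the minus strand (GRCm38.p6), and none of its exonic bases are shared with another annotated gene.

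Mapk8, which encodes JNK1, was at 24.0, 27.2 and 24.8 CPM in the controls and at 23.0, 27.9 and 24.2 CPM in the knockouts. The groups overlapped, and the log2 fold change was -0.021 (SE 0.123, edgeR adjusted p = 0.96). Mapk9, which encodes JNK2, was at 63.0, 49.0 and 58.0 CPM against 56.2, 56.3 and 58.6 CPM, and its knockout libraries lay inside the range of the controls. Its log2 fold change was 0.0098 (SE 0.119, edgeR adjusted p = 0.982). No direction is given for either gene, since the sign turned with the scaling or the filter.

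Mapk10 was a small part of the JNK kinase transcripts in both genotypes, and a larger one in the knockouts. It made up 2.26, 1.63 and 2.12% of the summed FPKM of the 3 kinases in the controls and 4.14, 4.66 and 4.63% in the knockouts, a difference of 2.48 percentage points between means of 2.00 ± 0.332 and 4.48 ± 0.293% (SD, n = 3; exact permutation test, two-sided, p = 0.1, the smallest that 3 against 3 allows, one of 15 ratios and shares compared). Mapk9 took 70.9 ± 3.6% of the kinase FPKM in the controls and 69.7 ± 2.19% in the knockouts, and Mapk8 took 27.1 ± 3.93% and 25.8 ± 2.01%, with overlap between the genotypes in both. The summed FPKM of the 3 kinases was 15.2 ± 1.87 and 17.1 ± 0.837, with overlap (exact permutation p = 0.3).

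Of the upstream kinases, Map2k4 encodes MKK4 and was at 60.6, 75.1 and 62.7 CPM in the controls and 57.7, 60.8 and 56.1 CPM in the knockouts. Its log2 fold change was -0.18 (SE 0.116, edgeR adjusted p = 0.609), and 1 knockout library lay just within the control range. Map2k7, the gene of MKK7, was at 59.9, 48.7 and 50.2 CPM against 56.2, 48.5 and 53.1 CPM, with a log2 fold change of -0.0078 (SE 0.121) whose sign turned under other scalings. Of its exonic bases 35.2% are shared with the annotated gene Gm49320 on the same strand, which the count tables do not list.

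Map3k5 encodes ASK1, a MAP3 kinase that TRAF2 can activate. It was at 45.9, 33.9 and 45.5 CPM in the controls and 39.5, 28.0 and 32.8 CPM in the knockouts, a log2 fold change of -0.32 (SE 0.178, edgeR adjusted p = 0.565). NSD2fl/fl replicate 2 lay among the knockouts, and without that library the log2 fold change was -0.45 and Map3k5 passed the threshold of the study as the single lower member. Traf2, the adaptor, was at 30.3, 30.7 and 29.8 CPM in the controls and 26.2, 25.7 and 27.2 CPM in the knockouts. Its libraries did not overlap in CPM and the replicates of each genotype were close together, but the log2 fold change was small at -0.20 (SE 0.0962, unadjusted p = 0.0813, edgeR adjusted p = 0.512). In FPKM, which are scaled by library totals alone, Traf2 was at 6.02, 5.56 and 5.48 against 5.30, 5.19 and 5.78, and the groups overlapped.

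The JIP scaffolds parted in the same manner as the JNK kinases, with the genes of JIP1 and JIP2 higher and that of JIP3 not called. Mapk8ip1 was at 10.3, 6.67 and 8.96 CPM in the controls and 13.7, 17.2 and 17.2 CPM in the knockouts. Every knockout library was above every control, and the log2 fold change was 0.89 (SE 0.204, edgeR adjusted p = 0.302 and DESeq2 adjusted p = 0.0107). Mapk8ip2 was at 3.66, 2.32 and 3.26 CPM against 4.79, 6.21 and 5.98 CPM. Its libraries were likewise apart, with a log2 fold change of 0.88 (SE 0.245, edgeR adjusted p = 0.312 and DESeq2 adjusted p = 0.0437). Mapk8ip3, which encodes a scaffold linked to kinesin transport, was at 50.4, 45.1 and 42.4 CPM against 48.7, 43.4 and 47.1 CPM, with a log2 fold change of 0.015 (SE 0.109). For Mapk8ip3, 20.4% of exonic bases are shared with Eme2, Mrps34 and Nme3, and for Mapk8ip1 2.07% are shared with 1700029I15Rik on the other strand; since the counting is not known to use strand, reads of these genes may not be told apart there.

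The make-up of the JIP transcripts differed between the genotypes accordingly. The shares restate the same counts and are not separate evidence. Mapk8ip3 made up 69.2, 75.7 and 68.3% of the summed FPKM of the 3 JIP genes in the controls and 62.1, 53.6 and 55.8% in the knockouts. Mapk8ip1 went from 21.4 ± 2.87% to 31.9 ± 3.19% and Mapk8ip2 from 7.48 ± 1.15% to 11 ± 1.24% (SD, n = 3; exact permutation p = 0.1 for each share, the smallest possible). None of the 3 shares overlapped between genotypes. The summed JIP FPKM was 11.1 ± 1.79 in the controls and 15.2 ± 0.967 in the knockouts, without overlap (exact permutation p = 0.1).

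**Figure D2:**
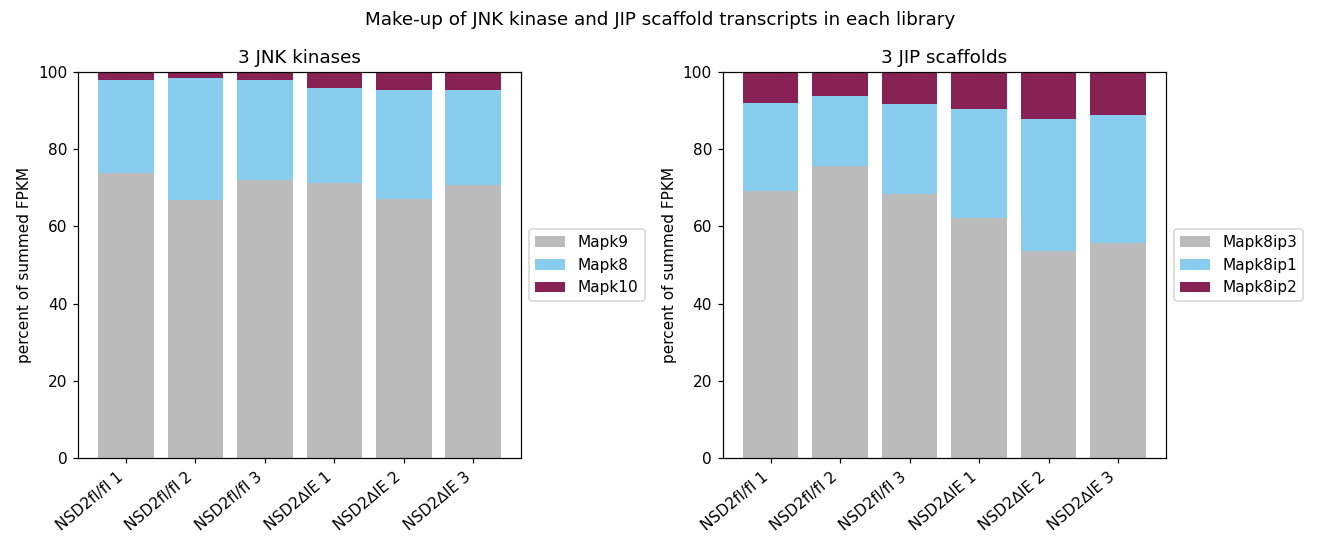
Stacked bars give the percent of summed FPKM taken by each JNK kinase (left) and each JIP scaffold (right) in each of the 6 libraries. Mapk10 is the thin top band on the left, at most 2.26% in NSD2fl/fl and at least 4.14% in NSD2∆IE, and the Mapk8ip3 share on the right falls from at least 68.3% to at most 62.1%.

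Mapk10, Mapk8ip1 and Mapk8ip2 moved with Uchl1 from library to library. Uchl1 stood at 22.7, 12.9 and 20.3 CPM in the controls and 31.2, 39.9 and 40.4 CPM in the knockouts. It had the same lowest library as the 3 members, NSD2fl/fl replicate 2, and no overlap between genotypes. Its log2 fold change was 1.00 (SE 0.23, edgeR adjusted p = 0.302 and DESeq2 adjusted p = 0.0101). Of its exonic bases 18.1% are shared with the antisense gene Uchl1os.

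Dividing Mapk10 by Uchl1 within each library removed most of the difference. The ratio serves to compare libraries and not the level of one gene with the other, since it is not per length. Mapk10 CPM was 15.1, 16.4 and 15.0% of Uchl1 CPM in the controls and 18.6, 17.4 and 16.9% in the knockouts. The 3 knockout libraries remained the higher, but only by 0.185 on the log2 scale (exact permutation p = 0.1), where Mapk10 alone differed by 1.19. From the lowest to the highest library Mapk10 CPM spanned 3.27-fold and Uchl1 3.14-fold, while their ratio spanned 1.24-fold. The counting intervals of single libraries overlapped between the genotypes. Of the counts of both genes together, Mapk10 took 13.1% in NSD2fl/fl replicate 1 (95% exact Clopper-Pearson interval 11.1 to 15.3) and 14.4% in NSD2∆IE replicate 3 (12.9 to 16.1). The farthest libraries, NSD2fl/fl replicate 3 at 13.0% (10.8 to 15.5) and NSD2∆IE replicate 1 at 15.7% (13.8 to 17.6), also had intervals that overlapped. These intervals cover counting error only. Against the mean log2 CPM of the 15 neuron markers, of which Uchl1 is one, the difference of Mapk10 was 0.19 (exact permutation p = 0.1). The genotypes were apart by a narrow margin, at -0.901 in NSD2fl/fl replicate 2 and -0.891 in NSD2∆IE replicate 1.

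Relative to Uchl1, Mapk8ip1 and Mapk8ip2 were not higher in the knockouts but slightly lower. Mapk8ip1 was 45.1, 51.8 and 44.2% of Uchl1 CPM in the controls and 43.9, 43.1 and 42.5% in the knockouts, a log2 difference of -0.12. Mapk8ip2 was 16.1, 18 and 16.1% against 15.3, 15.5 and 14.8%, a log2 difference of -0.13. Both ratios were lower in all 3 knockouts (exact permutation p = 0.1 for each), although both genes alone were higher. For both genes NSD2fl/fl replicate 2 had the highest ratio. The other controls stood close to the knockouts, as 44.2 against 43.9% for Mapk8ip1. These differences were not tested without that library. Profiles of log2 CPM centred on each gene's mean differed from that of Uchl1 by a root mean square of 0.0954 (Mapk8ip1) and 0.0936 (Mapk8ip2). Counting error alone would give 0.0861 and 0.129, with 82 to 248 counts of Mapk8ip2 a library. Both are thus near the size of counting error or below it. The differences between the genotypes were not set against it separately. Against the mean of the neuron markers the differences were -0.11 and -0.13 and the genotypes overlapped (exact permutation p = 0.5 and 0.4).

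**Figure D3:**
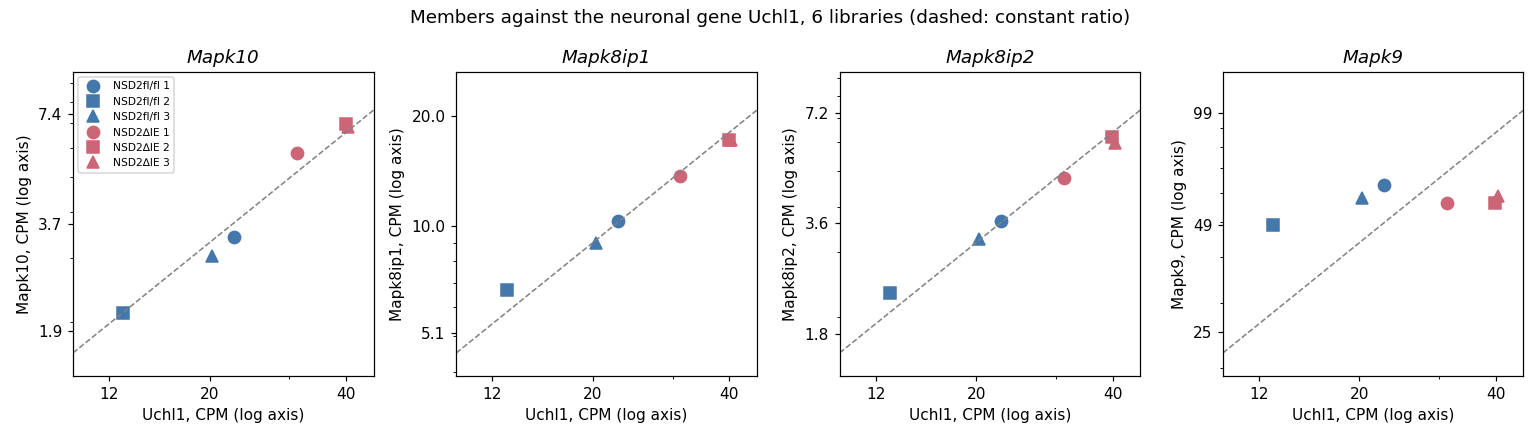
CPM of Mapk10, Mapk8ip1, Mapk8ip2 and, for contrast, Mapk9 against CPM of Uchl1, both on log axes, one point a library (blue NSD2fl/fl, red NSD2∆IE, shapes for replicates) with a dashed line of constant ratio through the geometric mean. The first 3 genes lie along the line over the 3.14-fold range of Uchl1, and Mapk9 stays near level.

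The profile over libraries was compared with that of every gene with an average log2 CPM of at least 1 (13277 genes), by the root mean square (RMS) difference of log2 CPM centred on each gene's own mean. The genes nearest to Mapk10 were S100b, a calcium-binding protein of glia, at an RMS of 0.074, Lum, a matrix proteoglycan, at 0.103, Eno2, the neuronal enolase, at 0.105, Adgrg6, an adhesion receptor of Schwann cells, at 0.105 and Uchl1 at 0.106. Mapk8ip1 and Mapk8ip2 came at ranks 26 and 37 of the list of Mapk10, while Mapk9, Mapk8ip3 and Mapk8 came at ranks 3092, 3895 and 5288. Mapk8ip1 and Mapk8ip2 were each other's nearest gene, at an RMS of 0.0255. Next to Mapk8ip1 stood Pfn2, Wasf3, Msrb3 and Map6, and next to Mapk8ip2 stood Wasf3, Map6, Pfn2 and Zcchc18. Uchl1 was at rank 18 for Mapk8ip1 and 12 for Mapk8ip2. The order among such near genes is not resolved at this depth, since counting alone would give an RMS of 0.139 for the JIP pair and of 0.171 for Mapk10 and S100b. The 6 points of a profile share their libraries and the split by genotype, and these values are descriptions without a test.

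The other JNK kinases and Mapk8ip3 had none of the neuron markers among their 5 nearest genes. The measure includes the size of a change, so this follows from their small differences. Mapk8 stood next to Cyb5a, Tcf12, Rnasek, Coq5 and Nomo1, at an RMS of 0.0302 to 0.0371. Mapk9 stood next to Aldh5a1, Stard4, Lrrc58, Bgn and E130308A19Rik, at 0.0293 to 0.0336. Mapk8ip3 stood next to Fxr2, Tchp, Zfp653, Scamp5 and Tbce, at 0.0190 to 0.0274. These genes varied little between libraries, with log2 fold changes from -0.074 to 0.037.

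Markers of nerve cells and glia were higher with Mapk10, Mapk8ip1 and Mapk8ip2. Of 15 neuron markers 13 were higher at the threshold of the study and 0 lower. Of all genes tested, 8.05% were higher and 2.21% lower. The genotypes did not overlap for 14 of the markers, all higher, where 11.4% of all genes were higher without overlap. The median log2 fold change of the 15 was 0.95 in a range of 0.72 to 1.22. Their summed level was 81.58 to 171.8 CPM in the controls and 221.3 to 261.8 CPM in the knockouts. Elavl3, a neuronal RNA-binding protein, went from 1.33 ± 0.35 to 3.10 ± 0.275 CPM, and Tubb3, the neuronal tubulin, from 11.5 ± 3.31 to 22.1 ± 2.61 CPM (SD, n = 3). Chat and Nos1, the enzymes that make acetylcholine and nitric oxide in motor neurons, had log2 differences of 0.77 and 1.15 with unadjusted p = 0.0522 and 0.0654 by edgeR. For Chat the genotypes barely parted, with 1.3 CPM after rounding in both NSD2fl/fl replicate 1 and NSD2∆IE replicate 3. Glia markers were higher for 5 of 6 (median 1.13), with summed levels of 15.94 to 23.53 CPM and 33.66 to 52.86 CPM.

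The smooth muscle markers moved as well. Where 8.05% of all genes tested were higher at the threshold of the study, 6 of 8 muscle markers were (median of the log2 fold changes 1.22). Their summed level was 1339 to 3623 CPM in the controls and 4539 to 9816 CPM in the knockouts. Of the epithelial markers 0 of 10 passed in either direction, 9 had log2 fold changes below 0 and 1, Cdx2, above it, with a median of -0.28 and sums of 13318 to 22221 CPM against 12934 to 14712 CPM. None of the markers of these 4 lists was at 0 in any library. Whether the amount of muscle wall and nerve in each piece of colon had a part in the 3 differences was not tested.

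Among the 663 genes nearest to Mapk10 in profile, the nearest 5%, stood 13 of the 14 neuron markers ranked, 5 of 5 glia markers, 3 of 8 muscle markers and 0 of 10 epithelial markers. For Mapk8ip1 the same counts were 11 neuron and 2 glia markers, and for Mapk8ip2 they were 11 and 3, with 0 muscle and 0 epithelial markers for both. For each of these 3 members, 1 of 3 markers of interstitial cells of Cajal, 1 of 5 fibroblast and 1 of 3 adipocyte markers also stood there. For Mapk8, Mapk9 and Mapk8ip3 there was 0 of the neuron markers. Their own profiles varied by an RMS of only 0.1, 0.109 and 0.0884, and the measure includes the size of a change. Genes with large differences could therefore not stand near them. These counts partly restate the fold changes and are not separate evidence.

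**Figure D4:**
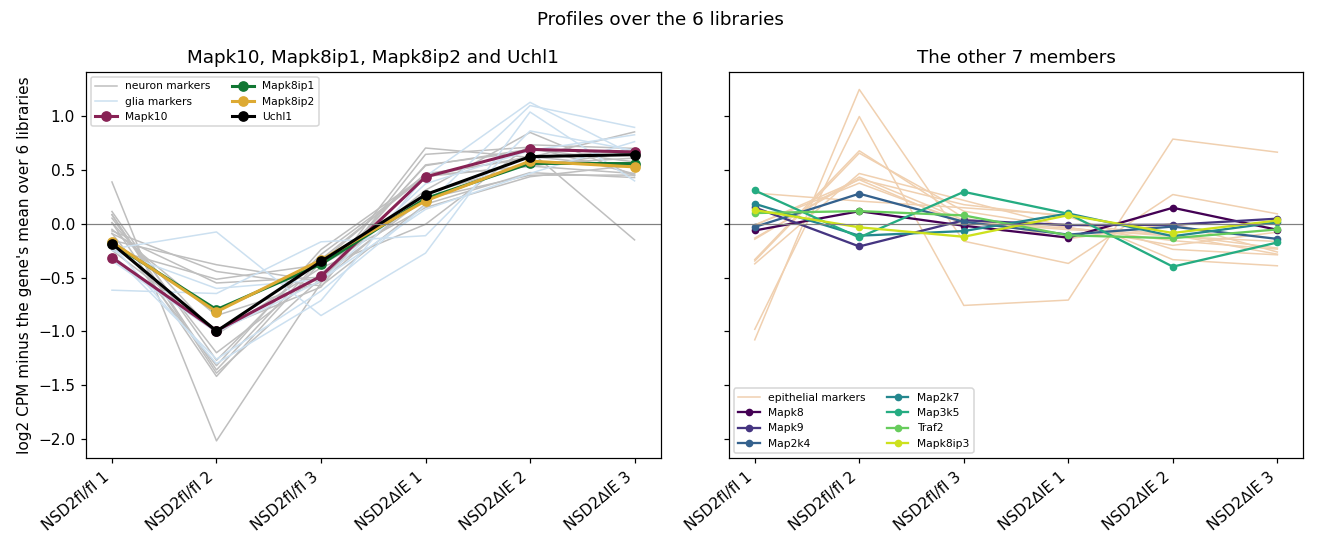
Log2 CPM of each gene minus its own mean over the 6 libraries, by library. Left, Mapk10, Mapk8ip1, Mapk8ip2 and Uchl1 over neuron markers (grey) and glia markers (light blue), the 4 named genes all lowest in NSD2fl/fl replicate 2; right, the other 7 members, which vary less, over epithelial markers (light orange).

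The difference in the 3 members was present on both sides of the first principal component, and larger on the side of NSD2fl/fl replicate 2. With 2 controls and 1 knockout on the first side and 1 control and 2 knockouts on the second, the log2 differences in CPM were 0.84 and 1.67 for Mapk10, 0.51 and 1.36 for Mapk8ip1, and 0.47 and 1.37 for Mapk8ip2. Uchl1 gave 0.54 and 1.64 in the same split. Traf2 gave -0.20 and -0.21, and Nsd2 gave -1.23 on both sides. Without NSD2fl/fl replicate 2 the log2 fold change of Mapk10 was 1.01, that of Mapk8ip1 0.74 and that of Mapk8ip2 0.71. Each side of the component alone holds too few libraries for a test. With the side as a factor over all 6 libraries, the log2 fold changes of Mapk10, Mapk8ip1 and Mapk8ip2 were 1.26, 0.93 and 0.92. Their edgeR adjusted p values in that fit were 0.314, 0.314 and 0.318.

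The wider JNK pathway was described by 67 genes outside the 10 members, of which all were tested. At the threshold of the study 4 were higher, namely Traf1, Traf5, Flna and Dusp8, and 4 were lower, namely Tnf, Tlr4, Ern1 and Tnik, against 8.05% and 2.21% of all genes. By an adjusted p under 0.05 edgeR called 0, with 8 at an unadjusted p under 0.05, and DESeq2 and limma-voom called 0. The median log2 fold change of the 67 was -0.10. The count of higher genes was 2 without NSD2∆IE replicate 2, 0 without NSD2∆IE replicate 3 and 1 without NSD2fl/fl replicate 3, and that of lower genes was 2 without NSD2∆IE replicate 2, without NSD2∆IE replicate 3 or without NSD2fl/fl replicate 2. Dusp8 and Ern1 overlapped between the genotypes and are named here for the count, after their values were seen.

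At the entry to the pathway, Tnf, the ligand that acts through TRAF2, was at 0.805, 2.23 and 1.57 CPM in the controls and 0.353, 0.530 and 0.723 CPM in the knockouts, a log2 fold change of -1.51 (SE 0.487, edgeR adjusted p = 0.352). In the alternative fits 13 of 16 gave Tnf an unadjusted p under 0.05. Tlr4, the receptor of bacterial lipopolysaccharide, was at 47.4 ± 10.8 against 29.3 ± 4.29 CPM (SD, n = 3), a log2 fold change of -0.70, with an unadjusted p under 0.05 in all 16 alternative fits. Ern1 was at 74.2, 55.3 and 60.9 CPM in the controls and 56.3, 38.4 and 42.6 CPM in the knockouts, with a log2 fold change of -0.47 (SE 0.182, edgeR adjusted p = 0.42). One knockout library of Ern1 lay within the control range. Of the other TRAF adaptor genes, Traf1 had a log2 fold change of 0.52 and Traf5 of 0.45, both without overlap, with an unadjusted p under 0.05 in 12 and 9 of the 16 alternative fits. Traf3 and Traf6 were at -0.15 each and did not pass, although Traf3 was lower without overlap. Of the 15 listed ligands, receptors and adaptors, 3 were higher and 6 lower without overlap. Among all genes tested, 11.4% and 7.28% were. Differences between these genes were not tested.

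Within the cascade, 0 of 15 other MAP3 kinase genes passed the threshold in either direction (median -0.12), and 1 of 7 MAP4 kinase genes did, Tnik, at 26.9 ± 4.9 against 19.6 ± 2.78 CPM, with an unadjusted p under 0.05 in 8 of the 16 alternative fits. Of 7 other scaffold genes only Flna, an actin-crosslinking protein abundant in smooth muscle, passed, at 491 ± 171 against 984 ± 282 CPM. Among 11 phosphatases and inhibitors 1 was higher and 0 lower. At the output, 0 of 12 genes of AP-1 factors and other substrates passed (median -0.14), and Jun stood at 87.4, 121 and 54.6 CPM in the controls and 95.8, 97.5 and 98.1 CPM in the knockouts.

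Some JNK substrates and JIP partners of nerve cells were higher in the knockouts at the threshold of the study. Of all genes tested, 8.05% were higher and 2.21% lower at that threshold. The lists are short, and their shares were not tested against those of all genes. Of 4 nerve cell substrates 2 were higher, Map1b, a microtubule-associated protein, with a log2 fold change of 0.76 (edgeR adjusted p = 0.436), and Stmn2, a tubulin-binding protein that is also in the neuron list, with 1.01 (edgeR adjusted p = 0.326). Stmn2 had an unadjusted p under 0.05 in all 16 alternative fits and Map1b in 11. Map1b was at 1.15 without NSD2fl/fl replicate 1 and at 0.49 without NSD2fl/fl replicate 2, and of the 6 libraries left out in turn only NSD2fl/fl replicate 1 left its unadjusted p under 0.05. Map2 was at 0.73 and Dcx at 0.051, and neither passed. Of 8 kinesin-1 subunits and cargo receptors 2 were higher, the neuronal heavy chain Kif5a with 0.96 (edgeR adjusted p = 0.404) and the light chain Klc2 with 0.47 (edgeR adjusted p = 0.331), with an unadjusted p under 0.05 in 12 and 14 of the 16 alternative fits. Kif5a ranged from 0.66 without NSD2fl/fl replicate 2 to 1.44 without NSD2fl/fl replicate 1. The median log2 fold change of the 8 genes was 0.0028, with 4 above 0 and 4 below. Kif5c, the other neuronal heavy chain, was at 10, 4.1 and 12.1 CPM in the controls and 10.6, 11.1 and 10.8 CPM in the knockouts, with a log2 fold change of 0.32 that did not pass. The ubiquitous heavy chain Kif5b was at 192 ± 19.9 against 165 ± 15.7 CPM with a log2 fold change of -0.21, which did not pass either. Of 15 genes of the ERK, p38 and other MAP kinase arms 1 was higher, Mapk4, an atypical MAP kinase, from 1.17 ± 0.601 to 3.55 ± 1.33 CPM, a fitted difference on the log2 scale of 1.60 (SE 0.483, edgeR adjusted p = 0.326 and DESeq2 adjusted p = 0.0375), and 0 were lower.

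**Figure D5:**
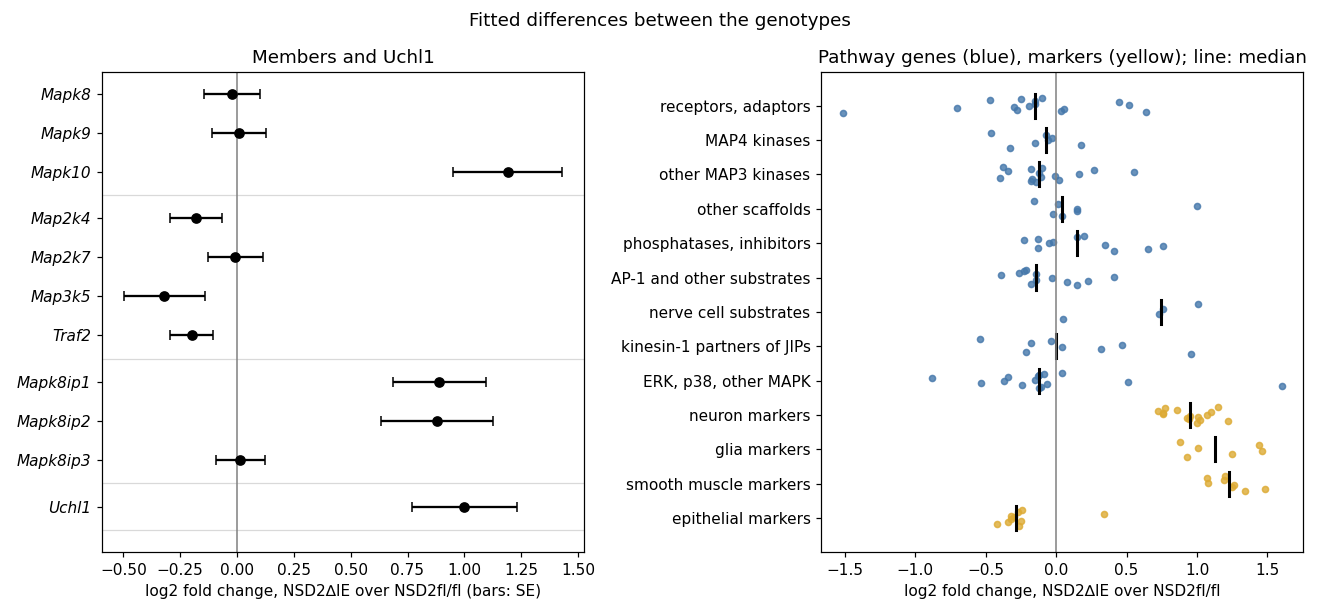
Log2 fold changes, NSD2∆IE over NSD2fl/fl. Left, the 10 members by role and Uchl1, with SE bars; right, each gene of the pathway lists (blue) and marker lists (yellow), with a black line at the median of each list. Mapk10, Mapk8ip1, Mapk8ip2 and Uchl1 lie between 0.88 and 1.19, in the range of the neuron and glia markers, while the general pathway lists have medians between -0.15 and 0.15.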

How the data were processed

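RNA-seq of mouse colon was analysed for 3 NSD2fl/fl and 3 NSD2∆IE libraries. The authors deposited raw counts per gene and FPKM per gene for each library. The submitters' processing notes name fastp, HISAT2, HTSeq, R 3.2.0 and mm10, while the annotation and the use of strand are not given in the sources used here. The deposited FPKM matched the counts divided by library total and a whole-number gene length (within 0.0638 bases). Counts were fitted with edgeR 4.0.16 (R 4.3.3; TMM factors, filterByExpr, quasi-likelihood F test, two-sided, no covariates, Benjamini-Hochberg over 16347 genes). DESeq2 1.42.0 and limma 3.58.1 were alternatives, with other scalings, no filter, log2(FPKM + 1) or log2(FPKM + 0.1), a principal component side, a replicate block and each library left out. CPM were TMM-scaled, and log2 CPM for profiles had a prior count of 2. Ratios and shares were compared with exact two-sided permutation tests (20 assignments). Scripts were tested on simulated data.

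The members and all lists were chosen with earlier results of these data known. Genes named were the 10 members, Uchl1, Nsd2, neuron markers, list genes past the threshold of the study without overlap, and the 5 genes nearest in profile to each JNK kinase and JIP scaffold. Jun, Kif5b, Kif5c, Map2, Dcx, Traf3, Traf6, Dusp8, Ern1 and Cdx2 fall outside this rule and were chosen after their values were seen. Positions and promoter windows came from RefSeq GRCm38.p6, and exon overlap from the GENCODE annotation. Whether libraries of a number pair was not settled. The correlations of their deviations were 0.501 and 0.643 for numbers 1 and 2 but -0.166 for number 3. No library pair agreed within sampling noise.

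Depth was 38041832 to 38604680 counts a library, so the lowest member count, 75, carries a counting error well below the fold changes called. Other lists examined were interstitial cells of Cajal (1 of 3 higher), enteroendocrine (0 of 6), fibroblast (2 of 5), endothelial (1 of 4), leukocyte (0 of 6) and adipocyte markers (1 of 4 tested). These counts use the threshold of the study, at which 8.05% of all genes tested were higher.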

Additional observations from a re-analysis of the deposited data

How the results depend on the processing

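Mapk10, Mapk8ip1, Mapk8ip2 and Uchl1 were higher at an unadjusted p under 0.05 in all 16 alternative fits, with log2 fold changes of 0.43 to 1.34, 0.74 to 1.03, 0.54 to 1.02 and 0.79 to 1.16; the lowest value of Mapk10, 0.43, came with log2(FPKM + 1), where the pseudocount exceeds its level. The adjusted p of Mapk10 ranged from 0.00154 to 0.99. At an adjusted p under 0.05, 3 members, Mapk10 (1.19), Mapk8ip1 and Mapk8ip2, were called by DESeq2 and 0 by the other fits; Uchl1, no member, was also called by DESeq2 (1.00), and the cause was not tested. On the same 16347 genes DESeq2 called 486 and edgeR 5. Members higher at the study threshold numbered 3 throughout, and members lower 0 to 1 on leaving out a library. Higher pathway genes numbered 7 with library totals alone and with log2(FPKM + 0.1), 2 at a fold change over 1.5, and 0 to 4 on leaving out a library; lower ones numbered 2 with library totals, log2(FPKM + 0.1), log2(FPKM + 1), upper-quartile factors or a fold change over 1.5, and 2 to 6 on leaving out a library. Library totals alone moved the median of all genes by 0.13, log2(FPKM + 0.1) by 0.14 and log2(FPKM + 1) by 0.10.

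Members near 0 turned in sign. Mapk8 was at 0.11 with library totals, 0.10 with log2(FPKM + 0.1), 0.084 with log2(FPKM + 1), 0.048 with upper-quartile factors and -0.11 to 0.044 on leaving out a library. Map2k7 was at 0.11, 0.12, 0.11 and 0.06 in the same settings, 0.046 with the principal component side as a factor and -0.066 to 0.087 on leaving out a library. Without a filter Mapk9 was at -0.02 and Mapk8ip3 at -0.015, and leaving out a library gave -0.086 to 0.09 and -0.038 to 0.083.

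With the replicate number as a block Mapk10 was at 1.21 and the members higher were again 3; the ratio to Uchl1 gave the same 0.185 with an exact p of 0.25, the smallest for 3 pairs. Whether the numbers pair the samples is not known. The libraries of numbers 1 and 2 correlated best with their own number, and those of number 3 did not. With 75 to 283 counts of Mapk10 a library, a difference of its ratio to Uchl1 of this size is near the limit of counting error.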
